A study of Homo sapiens with 22 samples.

Results

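The RNA response of MDA-MB-231 cells to a hairpin against LOXL2 was read from 6 RNA-seq libraries, of 22 samples in the series. They are 3 shControl libraries and 3 shLOXL2 libraries, chosen by the treatment in their labels, and each holds a read count per gene identifier. MDA-MB-231 is an established human line derived from triple-negative breast cancer, that is, from a tumour without estrogen and progesterone receptors and without amplified HER2. A short hairpin RNA is an expressed RNA that is processed into a small interfering RNA and lowers the messenger RNA it matches. The labels name the hairpin only as the treatment. They give neither its sequence nor a time, so a change due to less LOXL2 and a change due to the hairpin itself cannot be told apart. The labels also do not say that the libraries came from separate cultures, so the p-values measure the spread between these samples, which may be technical. The series title asks about LOXL2 in the transcription of cell cycle genes, and the account here concerns the gene classes outside the cell cycle.

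LOXL2 is a copper-dependent lysyl oxidase. It is secreted and crosslinks collagen in the extracellular matrix, and it also acts in the nucleus on histone H3. In basal-like breast cancer cells it is known for a part in invasion and in the mesenchymal state, and that state is set by secreted signals, their surface receptors and the transcription factors they control. In bulk RNA, fewer cells of a type and less RNA per cell cannot be told apart.

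Library depth ran from 40254464 to 49375803 counts, and 15602 genes with enough counts were tested. Levels are given as CPM, counts divided by the library total in units of 1e6 after TMM scaling, which corrects each library's total for differences in composition. LOXL2 was 445, 413 and 379 CPM under shControl and 132, 139 and 99.1 CPM under shLOXL2, so the target went with all 6 labels. Of the 11 markers listed for this mesenchymal line, 10 were over 1 CPM in every library. VIM, which encodes vimentin, ran from 3750 to 4107 CPM without TMM scaling. SPARC, a matrix protein also on that list, was lower, between 0.808 and 1.72 CPM. Of the receptors that define the tumour type, ESR1 was at 0 to 0.0248 CPM and PGR at 0.0248 to 0.143 CPM, while ERBB2 was measured at 89.9 to 97.0 CPM. Of 9 tested luminal epithelial markers, 3 were higher in shLOXL2 (KRT19, KRT18 and ELF3), GATA3 was lower, and 5 were not called. Over the list of 12 the summed level was 837 to 925 CPM in shControl and 1044 to 1159 CPM in shLOXL2, led by KRT19 at 216 to 284 against 398 to 458 CPM. The summed stromal markers were 43.8 to 45.7 CPM against 54.8 to 64.1 CPM, with DCN at 0 in 5 of the 6 libraries. Leukocyte and endothelial markers summed to at most 5.58 CPM in shControl and 4.92 CPM in shLOXL2, with CD3E at 0 in all. Their part in the results below was not tested.

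A gene was called when its edgeR quasi-likelihood p, adjusted by Benjamini-Hochberg over all tested genes, was below 0.05. By that rule 42.9% of the 15602 genes were called, since 21.6% were higher in shLOXL2 and 21.3% lower, and the median log2 fold change over all of them was -0.00. These shares are the background for every count that follows. In CPM the groups did not overlap for 27.3% of all tested genes on the higher side and 26.6% on the lower side. The genes named by rule as the largest changes had to show no overlap, so that trait is no further support for them. Over the 12803 tested protein-coding genes alone, 24.5% were higher and 23.8% lower. Surface proteins had more higher than lower calls. Of 670 tested genes, 233 were higher (34.8%) and 146 lower (21.8%), with a median of 0.07. Secreted proteins were called often in both directions, with 85 of 258 higher (32.9%) and 68 lower (26.4%) and a median of 0.03. Metabolic genes leaned lower, with 160 of 706 higher (22.7%) and 199 lower (28.2%) and a median of -0.03. Transcription factors were near the background on the higher side, with 199 of 924 (21.5%), and below it on the lower side, with 147 (15.9%). Beside protein-coding genes alone they were below on both sides. Long noncoding RNAs (lncRNAs) were called least, with 131 of 1566 higher (8.37%) and 170 lower (10.9%). Genes in none of these 5 classes numbered 11495, of which 22.3% were higher and 22.6% lower. The classes were written as lists of 380 secreted, 1057 surface, 1199 transcription factor and 775 metabolic genes found in the files, and 17 tested genes are both surface and metabolic.

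**Figure D1:**
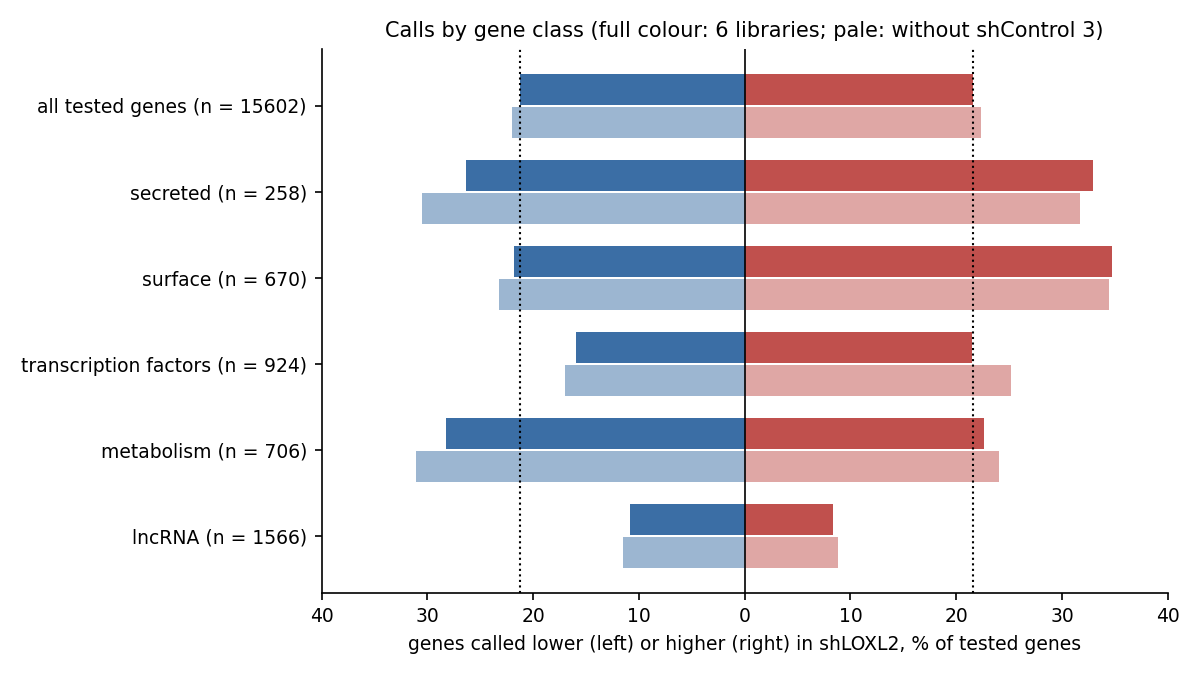
Horizontal bars give the percentage of tested genes called lower (blue, to the left) and higher (red, to the right) in shLOXL2, for all tested genes and for each class, with all 6 libraries (full colour) and without shControl replicate 3 (pale). Dotted lines mark the values over all tested genes, 21.3% and 21.6%; the surface bar reaches 34.8% on the higher side and the lncRNA bars stay under both lines.

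Shares of all counts, without TMM scaling, went the same way for surface and metabolic genes. Surface genes took 4.46, 4.40 and 4.38% of the counts under shControl and 4.79, 4.69 and 4.70% under shLOXL2, with no overlap. Metabolic genes took 7.55, 7.40 and 7.30% in shControl and 7.18, 7.01 and 7.19% in shLOXL2, again with no overlap. RNA of the mitochondrial genome took 3.33 to 4.04% of the same counts in shControl and 4.65 to 5.88% in shLOXL2. A larger mitochondrial share lowers every other share, and its part in the lower metabolic share was not tested. For surface and for metabolic genes, p was 0.1 by a two-sided exact permutation test, the smallest that 3 against 3 libraries allow. Most single secreted, surface and metabolic lists also had shares without overlap, in either direction. The groups overlapped for secreted proteins (2.67 ± 0.05% against 2.64 ± 0.01%, SD, n = 3 each), transcription factors (3.17 ± 0.07% against 3.11 ± 0.03%) and lncRNAs (0.673 ± 0.006% against 0.687 ± 0.023%).

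Among secreted growth factors and their modulators, 28 of 88 tested genes were higher and 26 lower, with a median of 0.03. INHBB, the beta-B subunit that forms activin B and inhibin B, was 9.37, 8.87 and 10.7 CPM in shControl and 31.1, 28.8 and 28.3 CPM in shLOXL2. The groups were far apart, and the log2 fold change of INHBB was 1.61 (SE 0.08, edgeR adjusted p 3.06e-07). Its position is chromosome 2, 121103712 to 121109379, plus strand (GRCh37), and its exons share no bases with another annotated gene. WNT9A, a Wnt ligand, was 6.99, 7.45 and 6.16 CPM in shControl and 16.5, 16.1 and 17.2 CPM in shLOXL2, a rise of 1.27 (SE 0.09). NRG2, a ligand of ERBB receptors, rose by 1.07 and GAS6, the ligand of AXL and MERTK, by 0.66. KISS1 encodes kisspeptin, first described as a suppressor of metastasis. It was 12.3, 13.7 and 14.6 CPM in shControl and 4.19, 3.58 and 3.50 CPM in shLOXL2, so every shLOXL2 library lay well below every shControl library. Further falls included EDN1, the vasoconstrictor endothelin-1 (-1.31), CCN2, a matricellular target of TGF-beta and YAP (-1.09, and -0.71 without shControl replicate 3), and FGF5 (-0.98).

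Cytokines split between 13 higher and 7 lower of 39, with a median of 0.11. CSF1, the growth factor of macrophages, was 361, 354 and 263 CPM in shControl and 832, 852 and 868 CPM in shLOXL2. The lowest of the shControl libraries was replicate 3, and the rise was 1.38 (SE 0.10, edgeR adjusted p 1.73e-06) with it and 1.25 without it. CSF1 lies on the plus strand of chromosome 1 from 110452864 to 110473614 (GRCh37). IL11, a cytokine of the IL6 family, was 36.7, 43.1 and 50.4 CPM in shControl and 16.1, 16.4 and 14.7 CPM in shLOXL2, a fall of 1.47 (SE 0.10). IL6 itself fell by 0.64 and the neutrophil chemokine CXCL8 by 0.56. In contrast LIF, of the same receptor family as IL6 and IL11, rose by 0.52. Without shControl replicate 3 the cytokine counts were 13 higher and 12 lower.

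Matrix genes moved in both directions. Of 28 tested collagens, 10 were higher and 5 lower, with a median of 0.08. COL4A5, a chain of basement membrane collagen, was 8.52, 8.67 and 9.33 CPM in shControl and 15.8, 16.2 and 14.4 CPM in shLOXL2, a rise of 0.81 (SE 0.08). COL17A1, the transmembrane collagen of hemidesmosomes, rose by 0.59 and COL18A1, the source of endostatin, by 0.54. COL15A1 fell by 0.43. Of 44 laminins and matrix glycoproteins, 13 were higher and 12 lower. LAMA5, the alpha-5 chain of laminin, was 297, 305 and 263 CPM in shControl and 534, 587 and 540 CPM in shLOXL2, a rise of 0.94 (SE 0.06). THBS1, thrombospondin-1, an inhibitor of angiogenesis and activator of latent TGF-beta, was 1457, 1640 and 2486 CPM in shControl and 605, 601 and 514 CPM in shLOXL2. All 3 shLOXL2 libraries were lower than all shControl libraries, of which replicate 3 was the highest. THBS1 fell by 1.70 with 6 libraries (SE 0.16, edgeR adjusted p 1.08e-05) and by 1.43 without that replicate. TNC, tenascin C, fell by 0.50 and TGFBI, a TGF-beta induced matrix protein, by 0.45.

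Of 47 secreted proteases and inhibitors, 17 were higher and 15 lower. The stromelysin MMP11 rose by 1.12 (SE 0.11), from 5.77 ± 0.80 to 12.5 ± 0.95 CPM (SD, n = 3 each), and the collagenase MMP1 rose by 0.73. ADAMTS1, a protease that cleaves proteoglycans, was 40.7, 43.5 and 106 CPM in shControl and 24.1, 22.8 and 16.9 CPM in shLOXL2. The groups did not overlap with or without replicate 3, but its fall shrank from 1.58 to 0.99 on the log2 scale without that library, the largest shift among called secreted genes with a mean log2 CPM of at least 1.

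**Figure D2:**
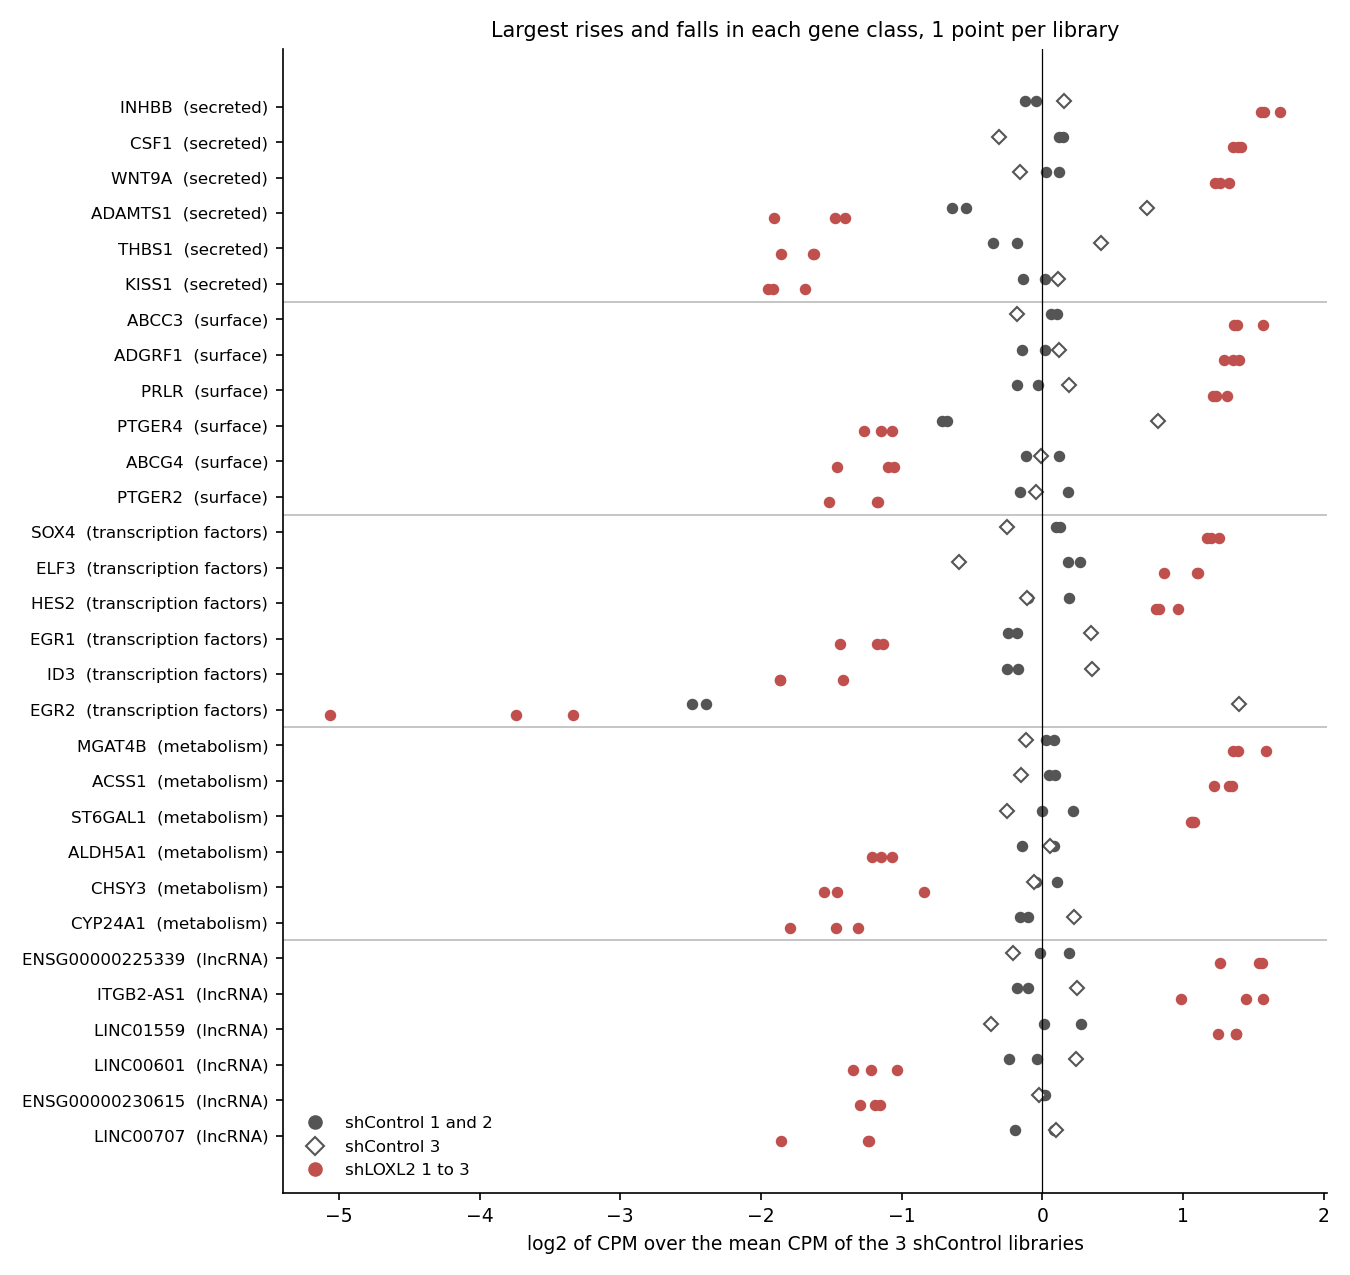
Each row is 1 of the 30 genes named as the 3 largest rises and 3 largest falls of a class, and each point is 1 library (grey, shControl; open diamond, shControl replicate 3; red, shLOXL2). The x axis is the log2 of the library's CPM over the mean CPM of the 3 shControl libraries. Within each row the red and grey points do not overlap, because the rule for naming required it.

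In the list of receptor tyrosine kinases, relatives and ephrins, 21 of 44 were higher and 8 lower, with a median of 0.14. IGF2R, the clearance receptor for IGF2 that also sorts lysosomal enzymes, was 312, 323 and 312 CPM in shControl and 484, 503 and 496 CPM in shLOXL2, a rise of 0.65 (SE 0.04). EPHA2, an ephrin receptor, rose by 0.52, MERTK by 0.60 and MST1R, the receptor of macrophage-stimulating protein, by 0.52. TIE1, an endothelial receptor, fell by 0.76 at a low level, from 4.64 to 2.73 CPM.

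Of 85 tested receptors for cytokines, TNF, TGF-beta, Wnt and Notch ligands, 32 were higher and 15 lower, with a median of 0.14. PRLR, the prolactin receptor, was 1.65, 1.83 and 2.13 CPM in shControl and 4.34, 4.65 and 4.41 CPM in shLOXL2. It rose by 1.25 (SE 0.13, edgeR adjusted p 1.89e-05). FZD4, a Wnt and norrin receptor, rose by 1.20, ACVR2B, a receptor that binds activins, by 1.06, and TGFBR3, the TGF-beta coreceptor betaglycan, by 1.01. TGFBR2, the type II TGF-beta receptor, fell by 0.60, from 365 to 241 CPM.

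The receptors and transmembrane ligands of axon guidance had the highest share of higher calls among the surface lists, 15 of 27, with 5 lower and a median of 0.28. SEMA4D, a transmembrane semaphorin, was 23.6, 24.4 and 25.4 CPM in shControl and 52.2, 50.9 and 51.1 CPM in shLOXL2, a rise of 1.07 (SE 0.05). PLXNB1, the receptor for SEMA4D, rose by 0.92. PLXNA1 rose by 0.70, PLXND1 by 0.64 and PLXNA3 by 0.59. PLXNA4 fell by 0.89, and SEMA7A, which is anchored to the membrane by a lipid, fell by 0.62.

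Integrins, the receptors that hold cells to laminin, collagen and fibronectin, were higher for 8 of 17 and lower for 2, with a median of 0.17. ITGB2, the beta chain of leukocyte integrins, was 15.1, 13.4 and 14.4 CPM in shControl and 27.7, 26.5 and 23.3 CPM in shLOXL2, a rise of 0.85 (SE 0.08). ITGB4 and ITGA6, which pair as the laminin receptor of hemidesmosomes, rose by 0.78 and 0.49. ITGB1, the partner of most alpha chains, rose by 0.32. ITGAV fell by 0.23 and ITGAE by 0.42. Integrins took 0.497, 0.469 and 0.440% of the counts in shControl and 0.563, 0.564 and 0.558% in shLOXL2, so the groups did not overlap. The same held for every other surface list, with G protein-coupled receptors lower in shLOXL2, so it does not set integrins apart. Without shControl replicate 3 the median was 0.10, with 7 higher and 2 lower.

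G protein-coupled receptors went the other way. Of 74 tested, 18 were higher and 30 lower, with a median of -0.14, against the background of 21.6% higher and 21.3% lower. PTGER2 and PTGER4, the prostaglandin E2 receptors that raise cyclic AMP, were the largest falls named in this family. PTGER2 was 2.94, 3.71 and 3.17 CPM in shControl and 1.45, 1.14 and 1.45 CPM in shLOXL2, a fall of 1.28 (SE 0.15). PTGER4 was 10.2, 9.94 and 28.9 CPM in shControl, so replicate 3 stood far above the others, and 7.80, 6.77 and 7.38 CPM in shLOXL2. The fall of PTGER4 was 1.15 with 6 libraries (SE 0.34, edgeR adjusted p 0.0177) and 0.46 without shControl replicate 3. The call of PTGER4 was also lost with DESeq2 and when shLOXL2 replicate 2 or 3 was left out. The sphingosine-1-phosphate receptor S1PR3 fell by 0.75 and the thrombin receptor F2RL3 by 0.96. Rises over 1 were seen for LPAR5, a lysophosphatidic acid receptor (1.36), and ADORA2A, an adenosine receptor (1.45), both at low levels, and for ADGRF1. ADGRF1, an adhesion receptor, was at 20.6, 18.4 and 22.0 CPM in shControl and 53.6, 49.8 and 52.0 CPM in shLOXL2, a rise of 1.35 (SE 0.07).

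Among transporters, 62 of 191 solute carriers were higher and 45 lower, with a median of 0.03. SLC4A11, a transporter of the bicarbonate family, rose by 1.21 (SE 0.06), from 26.1 ± 0.70 to 60.5 ± 3.79 CPM (SD, n = 3 each), and SLC20A1, a phosphate importer, rose by 1.02. SLC16A7, a monocarboxylate transporter, fell by 0.95. ABCC3, an exporter of organic anions and conjugated drugs, was 27.4, 28.4 and 23.3 CPM in shControl and 67.8, 78.2 and 68.6 CPM in shLOXL2. Its rise of 1.44 (SE 0.08, edgeR adjusted p 4.24e-07) was the largest among the surface genes that met the rule for naming. ABCG4, a sterol exporter, fell by 1.20, from 3.13 to 1.37 CPM. Of the 47 genes listed as immune ligands and other surface antigens, 18 were higher and 6 lower. GPC1, a heparan sulfate glypican, rose by 1.05 and the syndecan SDC4 by 0.74. CAV2, which forms caveolae with CAV1, was 119, 120 and 115 CPM in shControl and 65.4, 63.5 and 60.1 CPM in shLOXL2, a fall of 0.91 (SE 0.05). PODXL, the sialomucin podocalyxin, was listed with the adhesion proteins and rose by 0.86, from 563 ± 12.4 to 1022 ± 32.4 CPM (SD, n = 3 each).

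**Figure D3:**
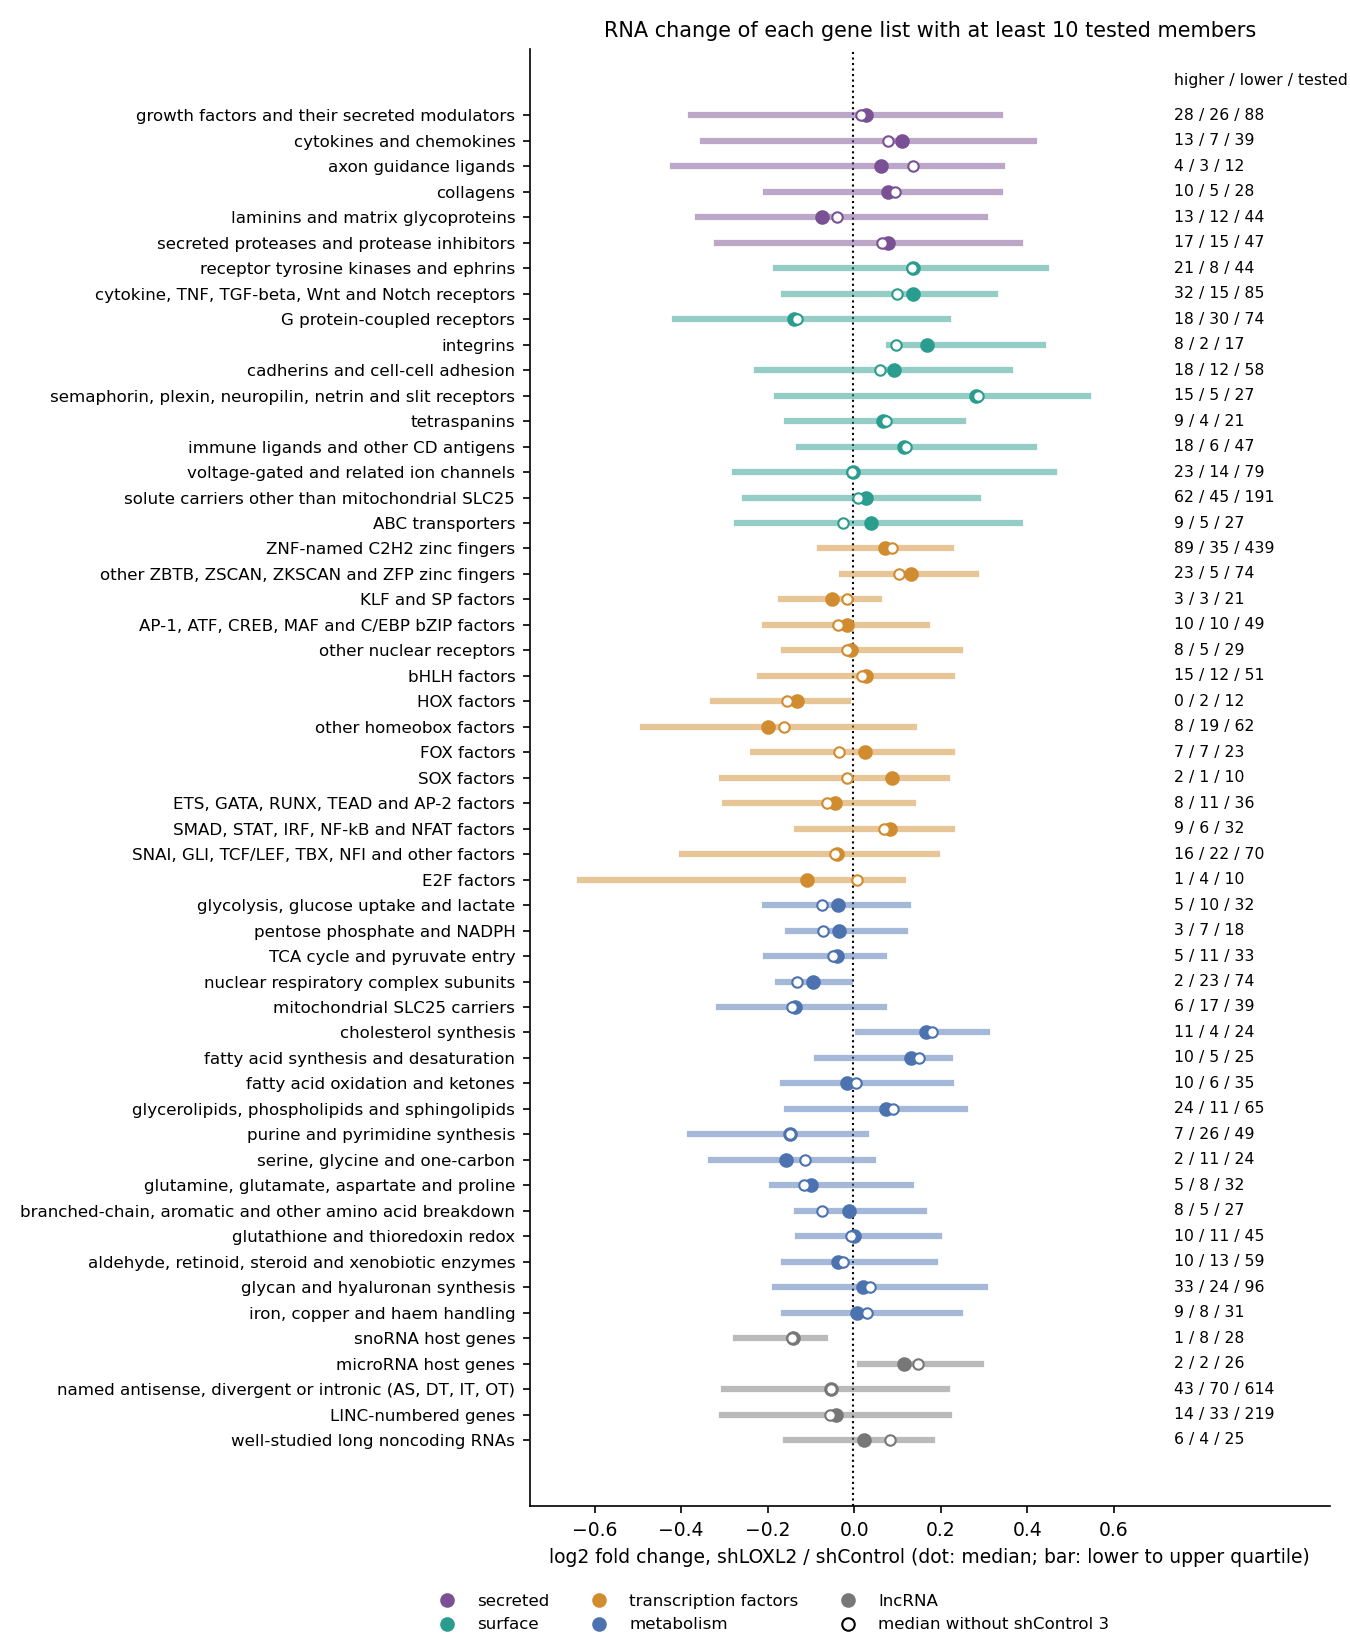
Each row is a gene list of 1 of the 5 classes with at least 10 tested members, coloured by class; immediate-early, cell cycle and marker lists are not drawn. The filled dot is the median log2 fold change, the bar runs from the lower to the upper quartile, the open dot is the median without shControl replicate 3, and the numbers at the right are the genes called higher, called lower and tested; of those drawn, axon guidance receptors lie highest (0.28) and other homeobox factors lowest (-0.20).

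Among transcription factors, zinc finger genes had more higher than lower calls, and homeobox factors more lower than higher calls. Of 439 tested ZNF-named C2H2 zinc finger genes, which bind DNA and in many cases silence retroelements through TRIM28, 89 were higher and 35 lower, with a median of 0.07. Their higher share of 20.3% was near the background, and their lower share of 8.0% was below it. Both shares were below those of protein-coding genes alone, 24.5% and 23.8%. Without shControl replicate 3 the counts were 111 and 32, where 22.4% of all tested genes were higher and 22% lower. The related ZBTB, ZSCAN, ZKSCAN and ZFP genes were higher for 23 of 74 and lower for 5, with a median of 0.13. ZBTB43 rose by 0.64 (SE 0.07) and ZNF618 fell by 0.96 (SE 0.08). Reads of clustered ZNF genes, which resemble each other, could be split by the counting, so single members are uncertain.

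Homeobox factors outside the HOX clusters, which pattern embryonic tissues, were higher for 8 of 62 and lower for 19, with a median of -0.20. SIX2 was 10.5, 10.0 and 9.99 CPM in shControl and 5.74, 5.26 and 4.93 CPM in shLOXL2, a fall of 0.94 (SE 0.09). SIX4 fell by 0.71 and MSX2 by 0.76, while CUX1 rose by 0.43. Of 12 tested HOX genes none was higher and 2 were lower, HOXA13 by 0.82 and HOXB9 by 0.66.

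SNAI2 (Slug), a repressor of epithelial genes, was 36.2, 38.5 and 60.0 CPM in shControl and 21.1, 22.4 and 21.6 CPM in shLOXL2. It fell by 1.05 with 6 libraries and by 0.79 without shControl replicate 3. SNAI1 (Snail) fell by 0.75 and LEF1, a nuclear partner of beta-catenin, by 0.91. ELF3, an epithelial ETS factor, was 3.11, 3.29 and 1.82 CPM in shControl and 5.89, 5.87 and 4.99 CPM in shLOXL2, a rise of 1.02 (SE 0.18, edgeR adjusted p 0.000925). SPDEF, an ETS factor of secretory epithelium, rose by 0.76. These calls moved together with the higher luminal marker sum given above, whose part in them was not tested. ELF3 is itself 1 of those markers. Of the 11 markers listed for the mesenchymal line, 2 were higher in shLOXL2, 2 lower and 7 not called. Their summed level, without TMM scaling, was 9610 to 9922 CPM in shControl and 9514 to 9917 CPM in shLOXL2. ZEB1, a repressor of epithelial genes like SNAI2, was at 118 CPM in each shControl library and at 109, 110 and 103 CPM in shLOXL2, without TMM scaling, and was not called (-0.09).

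SOX4, a SOX factor of progenitor cells, was 90.2, 92.4 and 70.9 CPM in shControl and 190, 194 and 202 CPM in shLOXL2, the largest rise of a transcription factor that met the rule for naming (1.21, SE 0.08, edgeR adjusted p 1.59e-06). It lies on chromosome 6 from 21593982 to 21598850 on the plus strand (GRCh37). Next by that rule were ELF3 and HES2, a bHLH factor of the HES family (0.87, SE 0.10). ID3, which blocks bHLH factors from binding DNA and is a target of BMP signals, was 8.64, 9.13 and 13.1 CPM in shControl and 3.86, 2.83 and 2.83 CPM in shLOXL2, a fall of 1.70 (SE 0.18) and of 1.49 without shControl replicate 3. HES1, a target of Notch, fell by 0.56. In the E2F family, E2F7, a repressor of E2F targets, rose by 0.57, and the activator E2F2 fell by 0.90.

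Metabolic genes divided by pathway. The lists of nucleotide and one-carbon synthesis had more lower than higher calls, and those of cholesterol and fatty acid synthesis more higher than lower calls. Purine and pyrimidine synthesis was lower for 26 of 49 genes and higher for 7, with a median of -0.15. Without the 3 genes that the S and G2/M phase list also holds it was 23 lower and 7 higher of 46, with a median of -0.15. TYMS, thymidylate synthase, was 317, 317 and 346 CPM in shControl and 182, 171 and 172 CPM in shLOXL2, a fall of 0.90 (SE 0.05). CTPS1, which makes CTP, fell by 0.58. AMPD3, which breaks down AMP and belongs to the same list, rose by 0.89. Serine, glycine and one-carbon genes were lower for 11 of 24 and higher for 2, with a median of -0.16. MTHFD2, the mitochondrial folate enzyme, fell by 0.54 (SE 0.06), AHCY, which recycles S-adenosylhomocysteine, by 0.44 and SHMT2 by 0.32. In the S and G2/M phase list 87 of 95 genes were lower, with a median of -0.51, and the part of the cell cycle in the nucleotide and folate calls was not tested.

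Nuclear genes for subunits of the respiratory chain were lower for 23 of 74 and higher for 2, with a median of -0.10, and without shControl replicate 3 for 34 and 1. COX8A, a subunit of cytochrome c oxidase, was 144, 149 and 143 CPM in shControl and 91.2, 89.3 and 94.0 CPM in shLOXL2, a fall of 0.67 (SE 0.04). COX7C, of the same enzyme, went in the opposite direction, at 90.8, 93.9 and 87.9 against 150, 146 and 154 CPM, a rise of 0.72 (SE 0.05). Both have short transcripts, and COX7C has processed copies in the genome, so its counts are uncertain. Carriers of the mitochondrial inner membrane (SLC25) were lower for 17 of 39 and higher for 6, with SLC25A10, the dicarboxylate carrier, falling by 0.92. RNA of the mitochondrial genome moved the other way. It took 3.78, 4.04 and 3.33% of the counts in shControl and 4.65, 5.88 and 4.73% in shLOXL2, with no overlap between the groups.

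Cholesterol synthesis genes, which SREBP2 switches on when sterols are short, were higher for 11 of 24 and lower for 4, with a median of 0.17. Their share of all counts overlapped between the groups, at 0.2395, 0.2336 and 0.2568% in shControl and 0.2614, 0.2604 and 0.2416% in shLOXL2. DHCR7, the last enzyme of the pathway, was 109, 116 and 121 CPM in shControl and 158, 161 and 168 CPM in shLOXL2, a rise of 0.50 (SE 0.05). LSS, lanosterol synthase, rose by 0.48 and HMGCS1 by 0.33. FDPS fell by 0.21 and STARD4, a sterol carrier, by 0.46. Fatty acid synthesis genes were higher for 10 of 25 and lower for 5, with a median of 0.13. ACSS1, which makes acetyl-CoA from acetate in mitochondria, was 14.2, 13.8 and 12.1 CPM in shControl and 31.2, 34.1 and 33.6 CPM in shLOXL2, a rise of 1.3 (SE 0.08). The desaturases split, with SCD higher by 0.58 and its relative SCD5 lower by 1.05. FASN, fatty acid synthase, rose by 0.29. Of 65 genes for glycerolipids, phospholipids and sphingolipids, 24 were higher and 11 lower.

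Glycolysis genes were higher for 5 of 32 and lower for 10, with a median of -0.04. TPI1 fell by 0.49, LDHA by 0.25 and the regulator PFKFB3 by 0.38. HKDC1, a hexokinase relative, rose by 0.83 and the glucose transporter SLC2A3 by 0.69. SLC1A5, an importer of glutamine, was 268, 269 and 284 CPM in shControl and 169, 159 and 151 CPM in shLOXL2, a fall of 0.78 (SE 0.05). IDH1, a cytosolic isocitrate dehydrogenase, fell by 0.41.

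Glycan synthesis held the largest rise among the called genes of the metabolic class. MGAT4B adds a branch to N-glycans, and it was 129, 135 and 118 CPM in shControl and 325, 333 and 382 CPM in shLOXL2, a rise of 1.45 (SE 0.07, edgeR adjusted p 2.86e-07). Its position is chromosome 5, 179224597 to 179233952, minus strand (GRCh37), where its exons share bases with SQSTM1 on the other strand, which rose by 0.86. ST6GAL1, which adds sialic acid to N-glycans, rose by 1.07, from 14.7 ± 2.37 to 30.7 ± 0.19 CPM (SD, n = 3 each). CHSY3, which builds chondroitin sulfate, fell by 1.25. The list as a whole had 33 higher and 24 lower of 96, with a median of 0.02. The largest fall among called metabolic genes was that of CYP24A1, which inactivates vitamin D. It was 11.9, 11.5 and 14.95 CPM in shControl and 5.16, 4.63 and 3.68 CPM in shLOXL2, a fall of 1.51 (SE 0.14). ALDH5A1, which clears succinic semialdehyde, fell by 1.14, and its exons share bases with GPLD1, which fell by 1.36.

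In iron handling the ferritin chains parted. FTL, the light chain, was 816, 746 and 705 CPM in shControl and 425, 398 and 405 CPM in shLOXL2, a fall of 0.88 (SE 0.06), while FTH1, the heavy chain, rose by 0.57. Both have many processed copies in the genome, so their counts are uncertain. HMOX1, haem oxygenase 1, rose by 0.95 and STEAP3, an iron reductase of endosomes, by 0.74.

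Long noncoding RNAs are transcripts that encode no known protein, and many are made antisense to a coding gene or from its promoter. Of 12951 genes of this type in the files, 1566 passed the filter. The number called higher was 131, and it was 85 without shLOXL2 replicate 2, the library with the highest MALAT1 level. Most lncRNAs were scarce. Of the 1566, 869 had a mean below 0 on the log2 CPM scale, and 9.55% of those were called, against 23.4% of 1013 coding genes in that range. At a log2 CPM of 2 to 4 the shares were 39.9% of 193 lncRNAs and 43.7% of 2110 coding genes. The median log2 fold change was -0.02 for the 745 lncRNAs whose exons share bases with a coding gene and -0.03 for the 821 that share none. The former had 61 higher and 86 lower, the latter 70 higher and 84 lower.

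Whether the counting used strand is not given in the sources used here, so reads of a coding gene can be counted for a gene on the other strand. This limit also holds for LOXL2 (with ENTPD4), THBS1 (FSIP1), LAMA5 (ADRM1), ITGAE (HASPIN), TPI1 (SPSB2), TYMS (ENOSF1) and MTHFD2 (SLC4A5), whose exons share bases with the coding gene in brackets on either strand. Of the 147 called lncRNAs that share exon bases, those with a tested coding gene formed 151 pairs. Some lncRNAs recur with another coding gene, and not all of the 147 are in a pair. The coding gene was called in the same direction in 66 pairs, in the opposite direction in 24 and not called in 61. Over all tested protein-coding genes 48.3% were called, 24.5% higher and 23.8% lower. ITGB2-AS1, opposite ITGB2, was at 1.19, 1.26 and 1.60 CPM in shControl and 3.69, 4.00 and 2.67 CPM in shLOXL2 (1.35, SE 0.18), and ITGB2 itself rose by 0.85.

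LINC01559 lies on chromosome 12 (13524023 to 13540101, minus strand, GRCh37), and its exons share no bases with another annotated gene. It was 1.63, 1.35 and 1.04 CPM in shControl and 3.48, 3.48 and 3.19 CPM in shLOXL2, a rise of 1.33 (SE 0.16, edgeR adjusted p 6.08e-05). LINC00707, on chromosome 10 (6821511 to 6884868, plus strand, GRCh37), was 4.59, 5.54 and 5.60 CPM in shControl and 2.23, 2.22 and 1.45 CPM in shLOXL2, a fall of 1.42 (SE 0.16). LINC-numbered genes as a list were higher for 14 of 219 and lower for 33. LINC00601 fell by 1.19. Genes known only by an identifier included ENSG00000225339, which rose by 1.46 opposite NUDT3, and ENSG00000230615, which fell by 1.21.

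The nuclear lncRNAs MALAT1 and NEAT1, which sit at nuclear speckles and paraspeckles, both rose. MALAT1, on chromosome 11 from 65265111 to 65275544 (GRCh37), was 96.4, 89.5 and 97.3 CPM in shControl and 168, 257 and 172 CPM in shLOXL2. The groups did not overlap, replicate 2 was the highest of the shLOXL2 libraries, and the rise was 1.07 (SE 0.13, edgeR adjusted p 6.73e-05). NEAT1 went from a mean of 329 to 655 CPM, a rise of 0.99. NORAD, which sequesters Pumilio proteins, rose by 0.51 and OIP5-AS1 fell by 0.44. The exons of OIP5-AS1 share bases with NUSAP1 and OIP5, which fell by 0.51 and 0.69, so its count is uncertain. LUCAT1 fell by 0.47 and lost the call under DESeq2 and without shLOXL2 replicate 1. Hosts of small nucleolar RNAs, whose introns carry the guides for modification of ribosomal RNA, were lower for 8 of 28 and higher for 1, with a median of -0.14. SNHG1 fell by 0.40, and by 0.26 without shControl replicate 3, and SNHG5 fell by 0.27. The exception, EPB41L4A-AS1 at 0.23, lost the call in 5 of the 6 fits that leave out 1 library.

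Of 26 tested microRNA host genes, 2 were higher and 2 lower. MIR29B2CHG was 2.99, 2.63 and 1.38 CPM in shControl and 5.77, 6.82 and 4.73 CPM in shLOXL2, a rise of 1.3 (SE 0.22) and of 1.04 without shControl replicate 3, and its exons share bases with CD46. MIR3142HG, the host of miR-146a, was 4.20, 4.12 and 1.36 CPM in shControl and 5.09, 8.48 and 6.06 CPM in shLOXL2. Its rise of 1.01 (SE 0.31, edgeR adjusted p 0.0216) was 0.65 without shControl replicate 3, and it lost the call under DESeq2 and without shLOXL2 replicate 2 or 3. The mature miRNAs of these hosts are shown because the host genes carry them. The mature miRNAs themselves were not measured. They are RefSeq sequences (GRCh38.p14), 5′ to 3′, with the seed (bases 2 to 8) in capitals, and the miR-29 pair shares the seed AGCACCA.
hsa-miR-29b-3p: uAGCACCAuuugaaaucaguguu
hsa-miR-29c-3p: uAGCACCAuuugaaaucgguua
hsa-miR-146a-5p: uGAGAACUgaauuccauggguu

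shControl replicate 3 stood over 2-fold apart from the other libraries of its group in a small set of genes. That cut does not count smaller differences. Mean chi-square per gene, a measure of difference in counts, was 21.528 and 19.112 between replicate 3 and shControl replicates 1 and 2. Between replicates 1 and 2 it was 5.418. Immediate-early genes are switched on within minutes of a stimulus, without new protein, and encode the EGR, FOS, JUN and NR4A factors and the feedback phosphatases of the DUSP family. Of all tested genes, 29 (0.186%) were over 2-fold higher in replicate 3 than in the mean of replicates 1 and 2, and 12 (0.0769%) were over 2-fold lower, with 0.5 CPM added to both levels. Of 46 tested immediate-early genes, 12 were over 2-fold higher. When each of the other 5 libraries was set against the rest of its group, 0 of 46 were. EGR3 was 1.07 and 0.956 CPM in shControl replicates 1 and 2 and 36.8 CPM in replicate 3. NR4A3 was 1.24, 0.956 and 22.0 CPM in shControl, and NR4A1 7.13, 6.85 and 73.9 CPM. In the shLOXL2 libraries NR4A1 was 5.72, 7.19 and 5.80 CPM, close to shControl replicates 1 and 2. FOSB was 41.2, 41.1 and 247 CPM in shControl and 38.9, 43.2 and 27.8 CPM in shLOXL2, and ATF3, a stress-induced bZIP factor, was 11.3, 10.3 and 75.9 CPM against 11.1, 11.4 and 9.96 CPM. The signal did not cover the list. FOS had a ratio of 0.693, JUNB of 0.754 and IER2 of 0.863, so these genes were not higher in replicate 3.

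**Figure D4:**
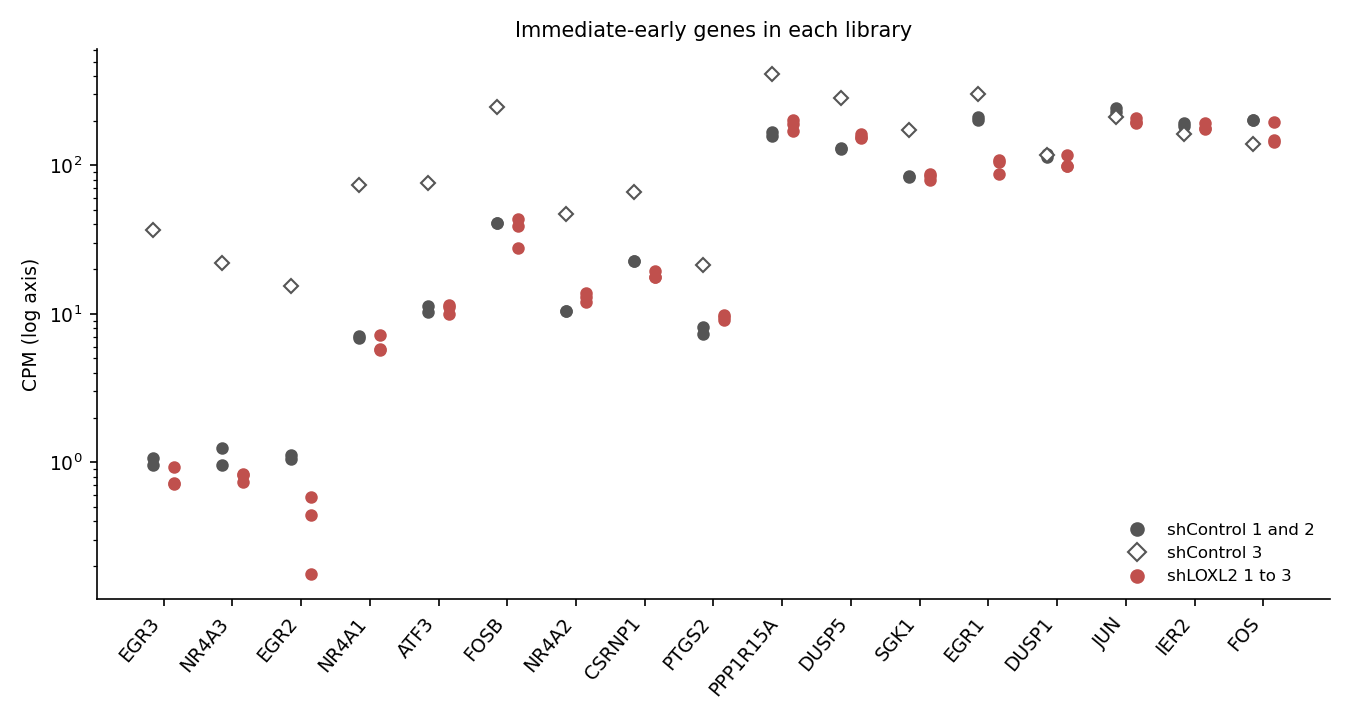
CPM on a log axis for the 12 immediate-early genes that were over 2-fold higher in shControl replicate 3 and for 5 others (EGR1, DUSP1, JUN, IER2, FOS), 1 point per library. The open diamond of shControl replicate 3 lies above all other libraries for the first 12, while for FOS it is the lowest point at 140 CPM.

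The library decided several calls. Of the 46 immediate-early genes, 3 were called higher and 19 lower with 6 libraries, with a median of -0.31, and 9 were higher and 16 lower without shControl replicate 3, with a median of -0.12. Of the 6 tested EGR and NR4A factors, 5 were lower with it and 2 lower and 1 higher without it. EGR3 went from -4.02 to -0.36, NR4A3 from -3.32 to -0.45, NR4A1 from -2.22 to -0.17 and FOSB from -1.58 to -0.17, and none of the 4 was called without it. These 4 also lost the call without any one shLOXL2 library. ATF3 was not called in either fit, at -1.58 and 0.00. NR4A2 was called higher only without replicate 3 (0.30, edgeR adjusted p 0.0064), as were KLF4 (0.41), PTGS2 (0.29), DUSP5 (0.28), PPP1R15A (0.21) and SIK1 (0.15). JUNB (-0.37), FOS (-0.32) and NFKBIZ (-0.22) were called lower only without replicate 3. EGR2, a zinc finger factor of growth control, was 1.04, 1.12 and 15.4 CPM in shControl and 0.176, 0.439 and 0.580 CPM in shLOXL2. It was lower in both fits, by 3.83 with replicate 3 (SE 1.07, edgeR adjusted p 0.0131) and by 1.41 without it. EGR1 was 211, 202 and 303 CPM in shControl and 106, 109 and 88.0 CPM in shLOXL2, a fall of 1.24 (SE 0.13) and of 1.04 without it. TRIB1, a pseudokinase, rose in both, by 0.56 and 0.76.

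Many immediate-early promoters carry CArG boxes, the element bound by the serum response factor SRF. In the RefSeq promoter table (GRCh38.p14, 250 bases before to 50 after the gene start), 438 of 27305 genes (1.60%) held a CArG box, searched on both strands (the element is its own reverse complement). A box was found for 3 of the 35 immediate-early genes present there (8.57%), EGR1, EGR2 and SRF. Of the 9 present that were over 2-fold higher in shControl replicate 3, EGR2 held one (11.1%). The boxes are shown with their flanks because EGR1 and EGR2 are the factors of this family that were lower with and without replicate 3. The box is in capitals, each line reads 5′ to 3′ on the gene's strand, and the windows of a gene with a pair of boxes overlap. A match describes these letters and says nothing of binding.
EGR1 first box: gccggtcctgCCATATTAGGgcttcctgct
EGR1 second box: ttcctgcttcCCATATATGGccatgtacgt
EGR2 box: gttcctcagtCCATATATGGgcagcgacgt
SRF first box: ctggggctcaCCATATAAGGagcggcctcg
SRF second box: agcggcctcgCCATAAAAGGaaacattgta
The EGR1 boxes lie on chromosome 5 (plus strand), in windows from 138465364 to 138465393 and from 138465386 to 138465415. The EGR2 window runs from 62816418 to 62816447 on chromosome 10 (minus strand), and the SRF windows from 43171229 to 43171258 and from 43171249 to 43171278 on chromosome 6 (plus strand). SRF RNA was 148, 154 and 218 CPM in shControl and fell by 0.41 with replicate 3 and by 0.21 without it.

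Genes that were low in shControl replicate 3 included stress and hypoxia targets. DDIT4, an inhibitor of mTORC1 induced by stress, was 221, 189 and 51.9 CPM in shControl and 190, 200 and 189 CPM in shLOXL2. It was not called in either fit. GDF15, a stress cytokine, was 9.80, 8.69 and 3.61 CPM in shControl and 14.2, 14.5 and 16.1 CPM in shLOXL2, and its rise was 1.01 with that library and 0.69 without it. The lncRNA MIR210HG, host of a hypoxia-induced microRNA, was 11.5, 10.3 and 4.56 CPM in shControl and was not called.

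Outside these genes most calls stayed when replicate 3 was left out. Of 15892 genes tested then, 3554 were higher (22.4%) and 3498 lower (22%). Both counts were above those with any other library left out. Of the 6686 genes called with 6 libraries, 6230 were called in the same direction, 456 lost the call and 0 reversed, and 775 were called only without it. By class the counts without it were 83 higher and 80 lower for secreted proteins, 233 and 157 for surface proteins, 234 and 158 for transcription factors, 171 and 221 for metabolism, and 147 and 191 for lncRNAs. At a log2 fold change above 1 the response was small: 212 of all tested genes (1.36%) were higher and 189 (1.21%) lower, among them 25 higher and 12 lower surface genes and 4 and 6 metabolic genes.

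**Figure D5:**
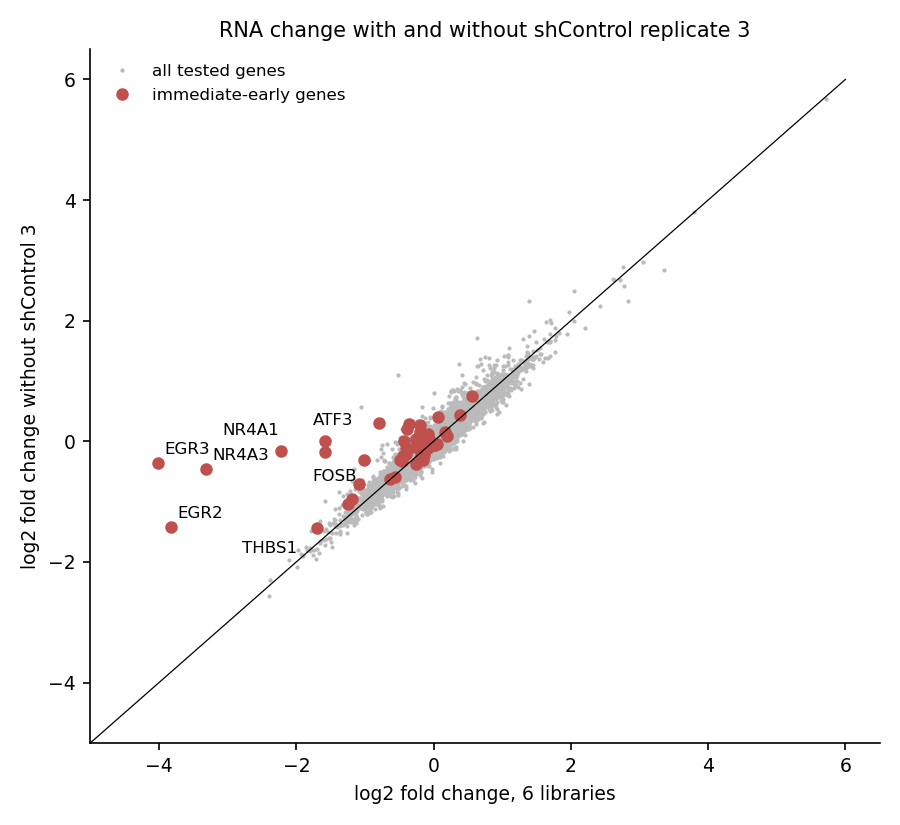
Each grey point is a tested gene, with its log2 fold change from 6 libraries on the x axis and without shControl replicate 3 on the y axis; red points are the immediate-early genes, and the line marks equal values. EGR3, NR4A3, EGR2, NR4A1, FOSB and ATF3 lie far from the line, while THBS1 (-1.70 and -1.43) lies near it.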

How the data were processed

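RNA was measured in 3 shControl and 3 shLOXL2 libraries, grouped by the treatment in the labels. The authors deposited 1 file per library, a list of gene identifiers with raw counts and no header. The submitters' processing notes name STAR 2.7.6a, R 4.0.2, DESeq2 1.30.0 and GRCh37.p13, with no role for each. The strand setting and annotation release are not given in the sources used here. Identifiers were matched without their version to GENCODE v44lift37 (GRCh37), which named 96.053% of them.

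Groups were compared with edgeR 4.0.16 in R 4.3.3 (filterByExpr, TMM, quasi-likelihood test, Benjamini-Hochberg over 15602 genes, threshold 0.05). In simulated counts, 200 genes were changed by 1 or 2 on the log2 scale, and 15440 genes passed the filter. Of genes changed by 1, 88.776% were called, and of those changed by 2, 98.947%, and 6.701% of calls were unchanged genes. The called genes of the real data had a median absolute log2 fold change of 0.36, so these rates need not hold for them. Depth was 40308300, 49375803 and 40851123 counts in shControl and 40254464, 42007916 and 45751729 in shLOXL2, and the biological coefficient of variation was 6.378%. Mean chi-square per gene between libraries of a group was 5.26 to 21.528, so the libraries differed by more than counting noise. The highest values, 21.528 and 19.112, were those of the pairs with shControl replicate 3. Mean chi-square cannot show whether the libraries came from separate cultures.

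The 62 gene lists, the classes and the naming rule were chosen with earlier results of these data known. A gene was eligible with an adjusted p below 0.05 with and without shControl replicate 3, the same sign in both, groups that do not overlap and a mean log2 CPM of at least 1. In each class the 3 largest rises and 3 largest falls were named, in each list 1 of each, and of the immediate-early genes the 6 with the highest ratio in shControl replicate 3. In each class the called gene that moved most without that replicate was added. LOXL2 and the identity markers were also named. Further examples of list members were chosen after their values were seen. Alternatives were RLE scaling, no filter, DESeq2 1.42.0, a replicate block, a log2 fold change above 1 and leaving out each library. ChIP-seq and ATAC-seq are not analysed here. Python 3.11.15 with scipy 1.17.1 was used for counts and permutation tests.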

Additional observations from a re-analysis of the deposited data

How the results depend on the processing

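The threshold of an absolute log2 fold change above 1 cut the counts by construction, to 212 higher and 189 lower over all tested genes, 14 and 12 for secreted proteins, 25 and 12 for surface proteins, 4 and 8 for transcription factors, 4 and 6 for metabolism, and 29 and 28 for lncRNAs. When each library was left out in turn, the counts of higher and lower genes ran from 2710 to 3554 and 2711 to 3498 over all genes, 68 to 83 and 56 to 80 for secreted, 196 to 233 and 128 to 157 for surface, 137 to 234 and 112 to 158 for transcription factors, 130 to 171 and 156 to 221 for metabolism, and 85 to 147 and 119 to 191 for lncRNAs. The lowest lncRNA count, 85 higher, came without shLOXL2 replicate 2, and the cause was not tested. RLE scaling, no filter and DESeq2 kept all 12 counts within 1.5 times, with DESeq2 at 3068 higher and 3006 lower. Replicate numbers did not pair the libraries (correlations of deviations -0.0496, -0.0643 and -0.1051), and a replicate block gave 2939 higher and 2854 lower. Under it NR4A1 (-1.41) and FOSB (-1.01) lost the call.

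Over the 127 named genes and 1266 values under alternatives, 1221 kept direction and call, 41 lost the call, 3 gained it and 1 changed sign. The sign change was ATF3 without shControl replicate 3, at 0.0014, while without shControl replicate 1 or 2 it was -1.9821 or -2.0112 and was called, as it was with no filter. Genes of low count are limited by depth: of coding genes with a mean below 0 on the log2 CPM scale 23.4% were called, against 57% at 6 or above.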

Other observations

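Small GTPases of the RAB family, which steer vesicle traffic, were higher for 15 of 53 tested genes and lower for 12, with a median of 0.09, beside 21.6% and 21.3% over all genes. The 3 changes over 1 were rises. RAB3B, of regulated exocytosis, rose by 2.72 (SE 0.12), RAB37 rose by 1.95 and RAB17, of epithelial transport, by 1.37. RAB38, which carries cargo to lysosome-related organelles, fell by 0.89 (SE 0.09), from 14.0 to 7.57 CPM, and RAB2A fell by 0.74.

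Actin cytoskeleton genes and targets of SRF and its MRTF coactivators were higher for 17 of 42 and lower for 11. TAGLN, transgelin, was 10.7, 10.7 and 18.6 CPM in shControl and 4.79, 5.55 and 4.37 CPM in shLOXL2, a fall of 1.44 with 6 libraries and of 1.13 without shControl replicate 3. Its exons share bases with PCSK7, which rose by 0.16. CNN2, calponin 2, fell by 0.63 and MYH10, a nonmuscle myosin, by 0.55. In contrast the filamin FLNA rose by 0.32 and vinculin (VCL) by 0.26. TMSB4X, a thymosin that binds actin monomers, rose by 0.64 (SE 0.07), and its processed copies make its count uncertain.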
